A study of Rattus norvegicus with 42 samples.

Results

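The enzymes that make serine and that pass a carbon unit from it into the folate pool were followed through 6 groups of rat retinas. The 10 members were taken by symbol from the deposited count matrix, which holds 32623 genes: Phgdh, Psat1 and Psph of serine synthesis, the serine hydroxymethyltransferases Shmt1 and Shmt2, the folate interconverting enzymes Mthfd1, Mthfd1l and Mthfd2, and the formyl-tetrahydrofolate dehydrogenases Aldh1l1 and Aldh1l2. Each symbol matched 1 row, and all 10 were among the 18094 genes that passed the filter on low counts. The retinas came from adult rats housed under a 12 h light and dark cycle. Control animals had no treatment, and the light damage group was exposed to 15000 lux for 24 h without any injection. The vehicle and nanoceria groups had an injection into the vitreous, of vehicle or of 1 mM cerium oxide nanoparticles, and no damaging light, while the vehicle plus light and nanoceria plus light groups had the injection and the same exposure. Libraries of the 3 exposed groups are called lit here and those of the other 3 groups unlit. The sources used here give neither strain nor sex, nor the time between injection, light and dissection. Light damage of this kind is a model of photoreceptor loss in an otherwise intact eye.

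PolyA RNA counts of 31 of the 42 labelled samples were used: 14 unlit libraries (5 of control, 5 of vehicle, 4 of nanoceria) and 17 lit ones (7 of light damage and 5 of each injected group), with totals of 25158407 to 182162368 per library. The shallowest, light damage 1, had the fewest counts of every member other than Mthfd2, and the others had at least 73369026 in total. Vehicle 4 and 7, and light damage 4 and 7, were far more alike than other pairs of a group (chi-square per gene 3.04 and 3.68, against 18.9 to 97.2 in other pairs) but differed by more than counting noise. Whether each pair is 2 animals or repeat libraries of 1 animal cannot be told from the files, so they were kept apart in the fit, and values with each pair summed are given where a call changed. Y-linked transcripts were high in 7 of 14 unlit and 9 of 17 lit libraries, and unevenly so among the unlit groups (4 of 5 in control, 1 of 5 in vehicle, 2 of 4 in nanoceria). The retina's defining rod genes were present in every library, and the summed level of 11 rod genes was 32487 to 62758 CPM (the count as a share of the library, scaled by TMM) in unlit and 5156 to 23005 CPM in lit libraries. Genes of lens, surface epithelium and fibroblasts were also present in all 31 libraries at levels that differed widely within groups, which is given beside the members it touches.

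Serine is made from a glycolytic intermediate in a chain of 3 steps, in which Phgdh oxidises 3-phosphoglycerate, Psat1 transfers an amino group from glutamate and Psph removes the phosphate. Shmt enzymes then split serine into glycine and a carbon unit carried by tetrahydrofolate, in the cytosol (Shmt1) and in mitochondria (Shmt2), and this unit is oxidised to formate by Mthfd2 and Mthfd1l in mitochondria or handled by the trifunctional Mthfd1 in the cytosol. Units carried in this way feed the synthesis of purines and thymidylate and the methionine cycle. In the retina, Müller glia are a known site of serine synthesis from glucose, and the transcription factor ATF4 of the integrated stress response is known to drive Phgdh, Psat1, Shmt2, Mthfd1l, Mthfd2 and Aldh1l2 in cultured cells.

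Averaged over the 3 injection states, damaging light moved the pathway in both directions. The mitochondrial enzymes Mthfd2 (2.66-fold), Shmt2 (1.66-fold) and Mthfd1l (1.23-fold) rose. The serine-making Psat1 (1.52-fold lower) and Phgdh (1.33-fold lower) fell, as did Aldh1l2 (1.44-fold lower), whose product is also mitochondrial. Psph, Shmt1, Mthfd1 and Aldh1l1 did not pass the test. Thus 3 of 10 members were higher and 3 lower, where 20.5% of all genes tested were higher and 16.6% lower, so the number called was near the background and only the values of each gene are read here. The median log2 fold change was -0.04 for the members and 0.02 for all genes tested. When libraries were scaled by size alone, the calls over all genes were 5036 higher and 1836 lower in place of 3715 and 3000, and all 6 member calls kept their direction.

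**Figure D1:**
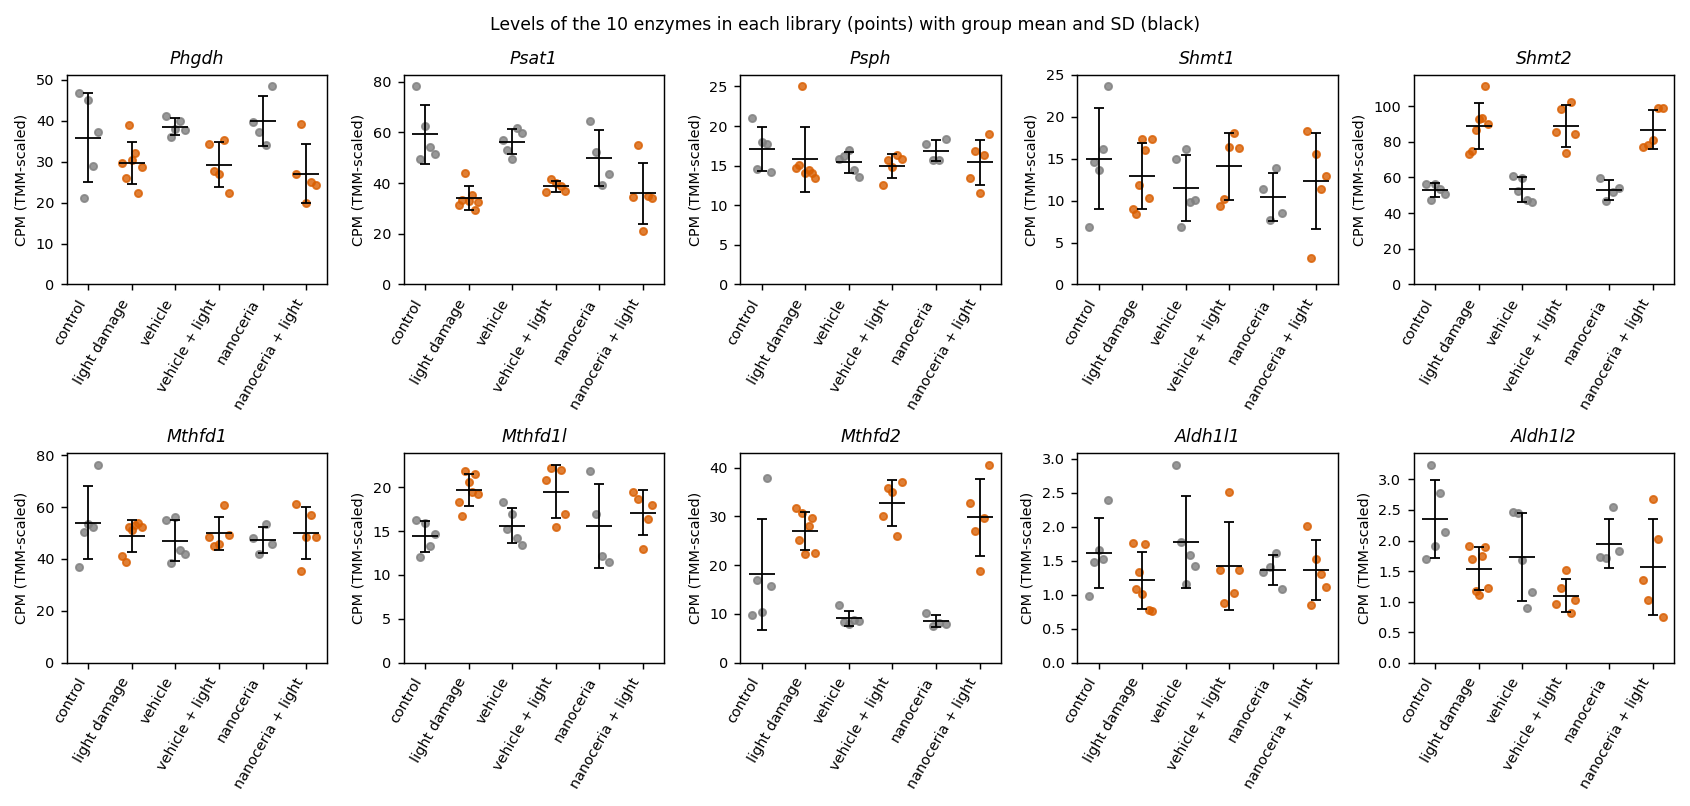
Level of each of the 10 enzymes (y axis, TMM-scaled CPM, starting at 0) in each library, by group, with unlit groups in grey and lit groups in orange and the group mean and SD in black. Shmt2 does not overlap between unlit (at most 61) and lit libraries (at least 72.9), and 1 control library stands at 37.8 CPM of Mthfd2.

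The promoters of the 5 members that changed with light and that have an entry in the RefSeq table (build GRCr8) are shown because these genes moved in opposite directions. Of the 10 members, 8 had an entry; Mthfd1 and Aldh1l2 had none. Each sequence runs from 250 bases before to 50 bases after the gene start, 5′ to 3′ on the gene's own strand: Mthfd2 at chr4:117380301-117380600, minus strand; Shmt2 at chr7:65249518-65249817, minus strand; Mthfd1l at chr1:42849174-42849473, plus strand; Psat1 at chr1:222645359-222645658, minus strand; and Phgdh at chr2:188624740-188625039, minus strand. Capitals mark matches, on either strand, to the CCAAT box (CCAAT) or to the core of the cAMP response element (TGACGT).
Mthfd2: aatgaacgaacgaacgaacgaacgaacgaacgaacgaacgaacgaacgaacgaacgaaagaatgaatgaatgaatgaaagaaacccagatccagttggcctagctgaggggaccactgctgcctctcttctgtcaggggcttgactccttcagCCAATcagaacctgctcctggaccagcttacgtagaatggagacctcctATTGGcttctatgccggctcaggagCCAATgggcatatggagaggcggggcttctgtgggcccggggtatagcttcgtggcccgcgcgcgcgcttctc
Shmt2: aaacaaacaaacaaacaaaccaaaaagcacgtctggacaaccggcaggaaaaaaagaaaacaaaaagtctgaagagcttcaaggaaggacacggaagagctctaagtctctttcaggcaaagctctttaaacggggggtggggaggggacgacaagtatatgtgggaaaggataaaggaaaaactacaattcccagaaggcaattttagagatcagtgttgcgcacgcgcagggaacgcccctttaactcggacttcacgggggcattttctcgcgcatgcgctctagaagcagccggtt
Mthfd1l: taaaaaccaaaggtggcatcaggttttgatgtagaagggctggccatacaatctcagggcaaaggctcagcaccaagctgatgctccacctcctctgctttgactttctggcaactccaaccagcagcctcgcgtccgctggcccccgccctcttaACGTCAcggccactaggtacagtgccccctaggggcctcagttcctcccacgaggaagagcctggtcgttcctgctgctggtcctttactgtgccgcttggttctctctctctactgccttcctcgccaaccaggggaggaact
Psat1: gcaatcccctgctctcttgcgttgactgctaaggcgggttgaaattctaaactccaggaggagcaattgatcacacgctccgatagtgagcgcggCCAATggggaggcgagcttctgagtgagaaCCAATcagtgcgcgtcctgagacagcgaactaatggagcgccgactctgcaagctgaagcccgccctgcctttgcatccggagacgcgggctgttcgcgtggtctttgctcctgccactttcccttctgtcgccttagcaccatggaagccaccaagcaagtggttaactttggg
Phgdh: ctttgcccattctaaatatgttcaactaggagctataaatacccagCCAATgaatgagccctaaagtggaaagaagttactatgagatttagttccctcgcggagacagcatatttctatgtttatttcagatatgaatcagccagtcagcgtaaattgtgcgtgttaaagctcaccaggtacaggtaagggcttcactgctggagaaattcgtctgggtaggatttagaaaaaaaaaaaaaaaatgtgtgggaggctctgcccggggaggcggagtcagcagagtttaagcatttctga
The Mthfd2 window held 3 CCAAT matches, starting 97, 48 and 23 bases before the gene start, the Psat1 window 2 and the Phgdh window 1. The Mthfd1l window held 1 TGACGT match and the Shmt2 window no match to any motif searched. The C/EBP-ATF response element core, TGATGNAA, and the E-box, CACGTG, were also searched on both strands, and no motif overlapped another. TGATGNAA was in none of the 8 windows, and CACGTG occurred only in that of Shmt1, with 2 matches. Over all 33469 promoters of the same length, 37.5% held CCAAT, 7.94% TGACGT, 6.42% CACGTG and 3.98% TGATGNAA. A match describes these letters and not the binding of a factor.

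Psat1 (ENSRNOG00000013971), the aminotransferase of serine synthesis, fell with light. Its level was 78.1, 49.6, 62.4, 54.1 and 51.6 CPM in the control libraries (replicates 1, 2, 4, 5 and 6), and in light damage the lowest, median and highest of 7 libraries were 29.4, 33.1 and 44 CPM. Every control library lay above every light damage library. The log2 fold change was -0.79 ± 0.15 (SE; edgeR adjusted p = 0.000281). After vehicle, levels went from 56.9, 52.9, 49.6, 61.6 and 59.9 CPM (replicates 1, 2, 3, 4 and 7) to 36.4, 41.7, 39.9, 38.8 and 37 CPM with light (replicates 1, 2, 3, 4 and 6), again with no overlap. The change was -0.54 ± 0.17 (edgeR adjusted p = 0.0242), and it was no longer called with the near-identical pairs summed (-0.51, edgeR adjusted p = 0.0627). It was also not called with libraries scaled by size alone (-0.45, edgeR adjusted p = 0.0857), nor without vehicle 4, vehicle 7 or vehicle plus light 1 (edgeR adjusted p 0.0522 to 0.0582). The call was lost with a block for the replicate number as well.

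In the nanoceria groups Psat1 overlapped between unlit and lit libraries. Levels were 64.6, 52.4, 39.4 and 43.7 CPM in nanoceria (replicates 1, 2, 3 and 5) and 34.4, 54.9, 21.2, 35 and 34.1 CPM in nanoceria plus light (replicates 1 to 5). Nanoceria plus light 2 was the only lit library above 50 CPM, and nanoceria plus light 3 was the lowest of all 31. The change of -0.48 ± 0.17 did not pass (edgeR adjusted p = 0.0672). Without nanoceria plus light 2 it was -0.68 and passed (edgeR adjusted p = 0.0029), as it did without nanoceria 3 (-0.58, edgeR adjusted p = 0.0389). Averaged over the 3 injection states the change was -0.60 ± 0.10 (SE; edgeR adjusted p = 8.75e-06).

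Phgdh (ENSRNOG00000019328), which commits 3-phosphoglycerate to serine, passed the test as lower in the average of the 3 light comparisons and in none of them alone. In control libraries it was 46.9, 21.2, 45.2, 28.9 and 37.3 CPM (replicates 1, 2, 4, 5 and 6), and in light damage the lowest, median and highest were 22.4, 29.6 and 39 CPM. Control 2 lay below every light damage library and controls 1 and 4 above them all, so these groups overlapped. Unlit vehicle libraries lay close together, at 36.0 to 41.2 CPM, and all 5 were above the 5 vehicle plus light libraries, at 22.3 to 35.3 CPM. Nanoceria libraries lay at 34.1 to 48.4 CPM and nanoceria plus light libraries at 19.8 to 39.2 CPM, with nanoceria plus light 2 the highest of the lit libraries, as for Psat1.

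The Phgdh change was -0.27 ± 0.17 without injection (edgeR adjusted p = 0.279), -0.40 ± 0.18 after vehicle (edgeR adjusted p = 0.151) and -0.56 ± 0.19 after nanoceria (edgeR adjusted p = 0.0519). Averaged, it was -0.41 ± 0.10 (edgeR adjusted p = 0.00264). After nanoceria it passed under the size factors of DESeq2 (-0.60, edgeR adjusted p = 0.0399) and without nanoceria plus light 2 (-0.73, edgeR adjusted p = 0.00777) or nanoceria 3 (-0.63, edgeR adjusted p = 0.0485).

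Psph (ENSRNOG00000000925), the phosphatase that ends the chain, did not pass in any light comparison. Its lowest, median and highest levels were 13.6, 16.0 and 21.0 CPM over 14 unlit libraries and 11.6, 14.8 and 25 CPM over 17 lit libraries, and the averaged change was -0.09 ± 0.08 (edgeR adjusted p = 0.414). The highest lit value, in light damage 3, was well above the next light damage library (15.1 CPM). Light damage 3 was also the highest of its group for Phgdh and Psat1, so that all 3 enzymes of serine synthesis had their highest light damage value in the same library.

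Markers of Müller glia were read beside Psat1 and Phgdh. All 9 marker genes were present in every library, and their summed level was 4589 to 6938 CPM in unlit and 3152 to 4694 CPM in lit libraries. Averaged over the 3 injection states, Glul (glutamine synthetase, -0.74 ± 0.08), Rlbp1, Kcnj10, Car14 and Dkk3 fell and Sox9 rose (0.77 ± 0.11). Their edgeR adjusted p ran from 9.26e-09 to 0.00375. Light without injection lowered 5 of the 9 and raised 0, where 10.6% of all genes were lower and 11.9% higher. After vehicle 1 fell and 1 rose (7.17% and 9.67% of all genes), as after nanoceria (5.78% and 8.15%). Nanoceria plus light 2, the lit library with the most Psat1 and Phgdh, also had the highest lit sum. Light damage 3, the highest of its group for Psat1 and Phgdh, had the lowest sum of that group (3238 CPM). The part of these cells in the fall of Psat1 and Phgdh was not tested, and in RNA of whole tissue fewer cells of a type cannot be told apart from less RNA per cell. Over all 31 libraries the log2 level of Phgdh was most like those of Fgfr2 (Pearson r = 0.79; 0.69 within 14 unlit and 0.66 within 17 lit libraries), Cyb5r1 (0.76), Alad (0.74), Itga7 (0.73) and Abhd4 (0.73). For Psat1, looked at after its values were seen, the gene most alike was Glul (r = 0.85; 0.56 within unlit and 0.57 within lit libraries). These libraries share light exposure and scaling, so the values describe likeness only.

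Shmt2 (ENSRNOG00000008106), which moves the carbon unit of serine onto folate inside mitochondria, rose in all 3 light comparisons. Control libraries held 56.4, 47.3, 56.5, 53.5 and 50.7 CPM (replicates 1, 2, 4, 5 and 6), and light damage libraries 72.9, 89.8 and 111 CPM at the lowest, median and highest. Levels were 46.2 to 61 CPM in vehicle against 73.8 to 102 CPM in vehicle plus light. In nanoceria they were 59.7, 46.5, 52 and 53.9 CPM (replicates 1, 2, 3 and 5), against 77.0, 78.3, 81.1, 98.7 and 98.8 CPM in nanoceria plus light (replicates 1 to 5). No lit library overlapped any of the 14 unlit libraries. The change was 0.75 ± 0.10 without injection (edgeR adjusted p = 4.12e-06), 0.74 ± 0.11 after vehicle (1.91e-05, edgeR adjusted) and 0.71 ± 0.12 after nanoceria (9.39e-05, edgeR adjusted). The response differed by -0.01 ± 0.15 between vehicle and no injection and by -0.04 ± 0.15 between nanoceria and no injection (interactions, edgeR adjusted p = 0.997 and 0.977). Group means formed 2 levels, 52.9 to 53.3 CPM in the unlit groups and 86.8 to 88.8 CPM in the lit groups, with no difference called within either level.

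Shmt1 (ENSRNOG00000005275), the cytosolic counterpart, did not pass the test with light and varied widely among animals. Unlit libraries ran from 6.79 to 23.6 CPM with a median of 12.5, and lit libraries from 3.14 to 18.3 CPM with a median of 12.9. The groups overlapped widely, and the averaged change was 0.10 ± 0.20 (edgeR adjusted p = 0.73), the least precise estimate among the 10. Its highest value was in control 6 and its lowest in nanoceria plus light 2. Over all 31 libraries the genes most like Shmt1, looked at after its values were seen, were Esrp1 and Grhl2 (r = 0.97 each), known regulators of epithelial cells, followed by Tmprss13, Marveld3 and Rab25 (0.97 each).

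Mthfd1 (ENSRNOG00000005602), the cytosolic enzyme that joins 3 folate reactions, also overlapped widely between unlit and lit libraries. It ran from 37 to 76.3 CPM in unlit and from 35.2 to 61.3 CPM in lit libraries, with medians of 49.2 and 49.1, and the averaged change was 0.01 ± 0.09 (edgeR adjusted p = 0.956). Control 6 was again the highest and nanoceria plus light 2 the lowest library. Shmt1 and Mthfd1 varied together within the unlit libraries (Pearson r = 0.95, permutation p = 1e-05, the smallest that 100000 permutations can give; Spearman rho = 0.91, permutation p = 6e-05; n = 13 with the near-identical pair taken as 1). The values adjusted over the 90 relations among members were 0.0009 and 0.0054 (permutation), and r was 0.93 without the 2 libraries farthest from the median of Shmt1. Within the lit libraries r was 0.76 (n = 16, permutation p = 0.00062, adjusted 0.0213), rho was 0.69 (permutation p = 0.00398, adjusted 0.179) and r was 0.55 without the 2 farthest libraries. No other pair of members had both adjusted values under 0.05.

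Genes of surface epithelium were listed after these values were seen. All 8 were present in every library, and their summed level was 1725 to 7269 CPM in unlit and 822 to 7573 CPM in lit libraries, and 0 of 8 passed the test with light. Control 6 had the highest unlit sum and nanoceria plus light 2 the lowest sum of all, as for Shmt1 and Mthfd1, while the order of the libraries between these extremes was not the same. The part of such cells in the levels of Shmt1 and Mthfd1 was not tested.

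Mthfd2 (ENSRNOG00000010833), the mitochondrial methylenetetrahydrofolate dehydrogenase that is low in most adult tissues, showed the largest change of the 10 in the average and after both injections, though not in light without injection. In control libraries it was 9.70, 16.9, 10.5, 37.8 and 15.8 CPM (replicates 1, 2, 4, 5 and 6), and in light damage 22.2, 28.0 and 31.8 CPM at the lowest, median and highest. Control 5 was above all 7 light damage libraries, while the other 4 controls lay below them all. After vehicle the level went from 11.8, 8.26, 7.93, 8.83 and 8.65 CPM (replicates 1, 2, 3, 4 and 7) to 30, 35.9, 35, 25.9 and 37.1 CPM with light (replicates 1, 2, 3, 4 and 6). After nanoceria it went from 10.2, 7.44, 8.18 and 7.97 CPM (replicates 1, 2, 3 and 5) to 32.8, 27, 18.8, 29.7 and 40.6 CPM with light (replicates 1 to 5). In both injected settings every lit library was above every unlit one.

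The rise of Mthfd2 was 1.85 ± 0.26 after vehicle (3.60-fold, edgeR adjusted p = 6.39e-06) and 1.82 ± 0.28 after nanoceria (3.52-fold, edgeR adjusted p = 3.25e-05). Without injection the change was 0.58 ± 0.23 and did not pass (edgeR adjusted p = 0.0733). Without control 5 it was 1.04 ± 0.18 and passed (edgeR adjusted p = 0.000126). In control 5 the ATF4-responsive Trib3 (25.4 CPM), Herpud1 (120 CPM) and Atf4 itself (750 CPM) were also the highest of the control group. Of 27 measured genes of an ATF4 list, which does not hold Herpud1, 8 were highest in control 5. None stood apart from the other controls as Mthfd2 did. The rest were highest in another control, among them Asns (43.3 CPM in control 5, at most 43.9 in the others) and Cebpb (5.28 and 21.5 CPM). Any gene is highest in 1 of the 5 controls, and the share over all genes is not given here, so this count is not read as a result. In order of group means, Mthfd2 was 8.46 ± 1.23 CPM (SD, n = 4) in nanoceria, 9.10 ± 1.57 (n = 5) in vehicle, 18.1 ± 11.4 (n = 5) in control, 27.1 ± 3.9 (n = 7) in light damage, 29.8 ± 7.96 (n = 5) in nanoceria plus light and 32.8 ± 4.71 (n = 5) in vehicle plus light. Nanoceria and vehicle were not called different, nor were the 3 lit groups, nor control and light damage.

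Mthfd1l (ENSRNOG00000019582), which releases formate inside mitochondria, rose on average by 0.30 ± 0.08 (edgeR adjusted p = 0.00531). Control libraries held 16.3, 12.0, 15.9, 13.3 and 14.7 CPM (replicates 1, 2, 4, 5 and 6) and light damage libraries 16.7, 19.5 and 21.9 CPM at the lowest, median and highest. These 2 groups did not overlap, and the change was 0.45 ± 0.14 (edgeR adjusted p = 0.016). Without control 2, the lowest of its group, it was 0.39 and no longer passed (edgeR adjusted p = 0.0559). After vehicle levels of 13.4 to 18.3 CPM stood against 15.5 to 22.2 CPM with light (0.32 ± 0.14, edgeR adjusted p = 0.142). After nanoceria levels of 11.5 to 21.8 CPM stood against 13 to 19.5 CPM with light (0.13 ± 0.15, edgeR adjusted p = 0.658), where nanoceria 1 was the highest library of both groups.

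Aldh1l1 and Aldh1l2 oxidise formyl-tetrahydrofolate, in the cytosol and in mitochondria, and both had few counts, 36 to 310 and 39 to 390 per library. Aldh1l2 (ENSRNOG00000008586) was 1.70, 3.24, 1.91, 2.77 and 2.14 CPM in control (replicates 1, 2, 4, 5 and 6) and 1.11, 1.70 and 1.91 CPM at the lowest, median and highest of light damage. Ranges were 0.894 to 2.47 CPM in vehicle, 0.811 to 1.51 CPM in vehicle plus light, 1.71 to 2.55 CPM in nanoceria and 0.749 to 2.68 CPM in nanoceria plus light. Unlit and lit libraries overlapped in all 3 settings. None of the 3 comparisons passed alone (-0.62 ± 0.27, -0.65 ± 0.30 and -0.32 ± 0.31, edgeR adjusted p = 0.104, 0.149 and 0.588), and the averaged fall of 0.53 on the log2 scale, SE 0.17, did (edgeR adjusted p = 0.0149). It was no longer called when all libraries with replicate number 2 were left out (-0.43, edgeR adjusted p = 0.0953) or by limma-voom with sample quality weights (-0.38, limma adjusted p = 0.0527).

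The genes most like Aldh1l2 over 31 libraries, looked at after its values were seen, were Clmp (r = 0.89) and the collagens Col1a1 (0.82) and Col3a1 (0.80). A list of 5 fibroblast genes, added at the same stage and present in every library, summed to 1399 to 5287 CPM in unlit and 711 to 6482 CPM in lit libraries. Nanoceria plus light 3 and 5 had the highest and the lowest sum, and also the highest and the lowest Aldh1l2 of their group. In vehicle, vehicle plus light and nanoceria only the highest sum and the highest Aldh1l2 fell in the same library. In control only the lowest did, and in light damage neither. Of these 5 genes 1 rose and none fell with light, and the part of such cells in the Aldh1l2 values was not tested. Aldh1l1 (ENSRNOG00000047023), also a known marker of astrocytes in brain, ran from 0.976 to 2.91 CPM in unlit and from 0.754 to 2.51 CPM in lit libraries, and its averaged change of -0.25 ± 0.17 did not pass (edgeR adjusted p = 0.286).

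**Figure D2:**
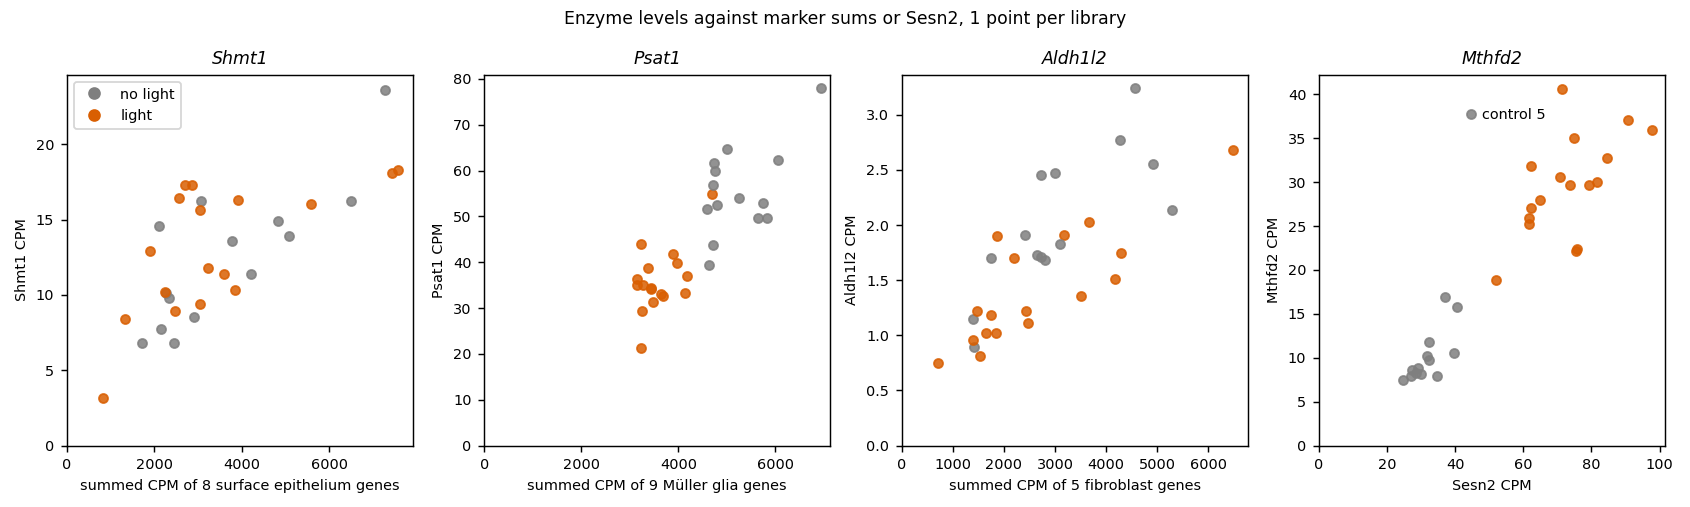
Level of Shmt1, Psat1, Aldh1l2 and Mthfd2 (y axes, CPM) against the summed level of 8 surface epithelium, 9 Müller glia or 5 fibroblast genes, or the level of Sesn2 (x axes, CPM), with 1 point per library, unlit in grey and lit in orange. Shmt1 and the epithelial sum are both lowest in the same lit library, and control 5, at 37.8 CPM of Mthfd2 and 44.7 CPM of Sesn2, lies apart from the other unlit libraries.

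By setting, light without injection raised 2 members (Shmt2 and Mthfd1l) and lowered 1 (Psat1), where 11.9% of all genes were higher and 10.6% lower. After vehicle it raised 2 (Shmt2 and Mthfd2) and lowered 1 (Psat1), against 9.67% and 7.17% of all genes. After nanoceria it raised 2 (Shmt2 and Mthfd2) and lowered none, against 8.15% and 5.78% of all genes. In that last comparison 4 of 10 members had an unadjusted p under 0.05, where 4715 of 18094 genes did. The other 2 were Phgdh and Psat1, which the Wald test of DESeq2 called lower. Each of the 3 comparisons has its own unlit group.

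**Figure D3:**
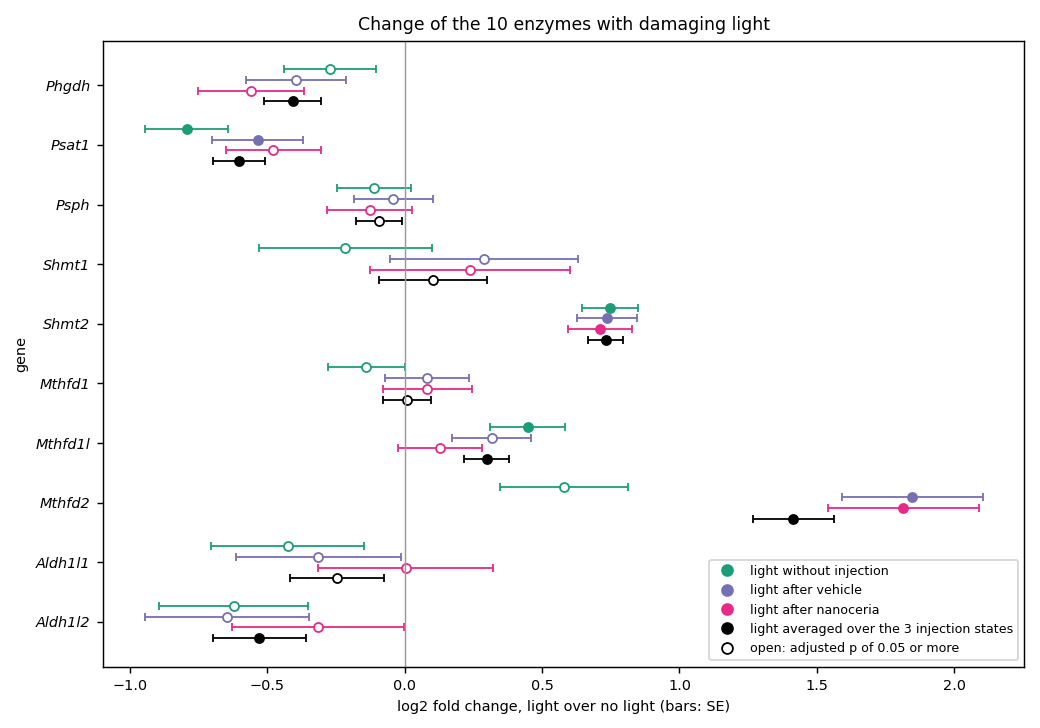
Log2 fold change of each enzyme with light (x axis; bars are SE) in the 3 injection settings and averaged over them, with filled points where the edgeR adjusted p was under 0.05. Shmt2 lies at 0.71 to 0.75 in all 3 settings, Psat1 at -0.79 to -0.48, and Mthfd2 at 0.58 without injection against 1.85 and 1.82 after vehicle and nanoceria.

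The balance between mitochondrial and cytosolic enzymes was described in each library by the difference of their log2 CPM, of which only shifts between libraries are read, since the level of one gene against another depends on transcript length. Shmt2 minus Shmt1 was 2.18 ± 0.53 (SD, n = 14) in unlit and 2.85 ± 0.62 (SD, n = 17) in lit libraries, with much overlap, since Shmt1 varied among animals. Mthfd2 minus Mthfd1 was -2.17 ± 0.58 in unlit and -0.76 ± 0.36 in lit libraries. Among the vehicle and nanoceria groups its values did not overlap between unlit (-2.82 to -2.22) and lit (-1.37 to -0.26) libraries, while control 5 (-0.47) lay inside the lit range. Mthfd1l minus Mthfd1 was -1.70 ± 0.38 in unlit and -1.39 ± 0.26 in lit libraries. Its values overlapped (-2.375 to -1.139 in unlit and -1.901 to -0.922 in lit libraries). Aldh1l2 minus Aldh1l1 did not shift beyond its spread (0.32 ± 0.53 and 0.10 ± 0.58).

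**Figure D4:**
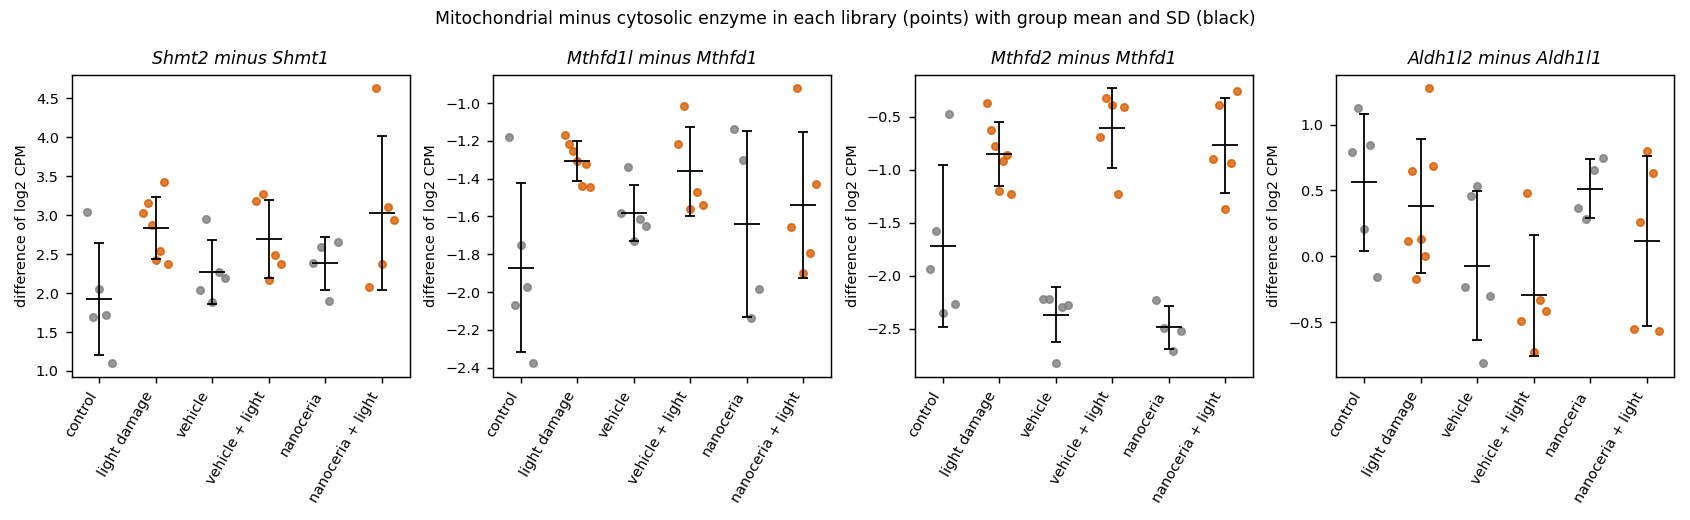
Difference of log2 CPM between the mitochondrial and the cytosolic enzyme of each pair (y axis) in each library, by group, with unlit groups in grey, lit groups in orange and the group mean and SD in black. Mthfd2 minus Mthfd1 shows the widest shift between unlit and lit groups, from a mean of -2.17 to -0.76.

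Injection alone was compared with no injection, where Mthfd2 was the member with the widest differences. Vehicle without light changed none of the 10 by edgeR, where 0.0221% of all genes were called in either direction. Mthfd2 was the only member with an unadjusted p under 0.05 there (-0.996 ± 0.25, edgeR adjusted p = 0.202), where 1462 of 18094 genes had one. It was called by the Wald test of DESeq2 and by limma-voom with sample quality weights. The latter called 1021 genes higher and 1190 lower. With the near-identical pairs summed limma-voom called 6 and 6, and Mthfd2 was not among them. Nanoceria without light lowered 1 member, Mthfd2 (-1.10 ± 0.27, edgeR adjusted p = 0.0228), where 0.73% of all genes were lower. In the same comparison 7 of 9 genes of microglia and macrophages were higher (median 1.04), where 1.73% of all genes were, with a summed level of 156 to 212 CPM in control and 248 to 389 CPM in nanoceria, and 3 of the 27 genes of the ATF4 list described with the pathway lists were lower. None of the other marker genes was called by edgeR in this comparison, and the part of these cells in the Mthfd2 value was not tested. Both comparisons use the same 5 control libraries, and without control 5 the nanoceria value was -0.65 and no longer called (edgeR adjusted p = 0.0888), and the vehicle value was -0.54 (edgeR adjusted p = 0.473). The nanoceria call was also lost without nanoceria 2, 3 or 5 (edgeR adjusted p = 0.0891, 0.0723 and 0.0576) or with only the control and nanoceria libraries in the fit (-1.07, edgeR adjusted p = 0.244). A block for the replicate number lost it too. It was kept with a term for Y-linked transcripts (-1.10, edgeR adjusted p = 0.0351). Nanoceria against vehicle without light called 0 members and 0% of all genes by edgeR, with 0 members at an unadjusted p under 0.05, and DESeq2 and limma-voom called 0 members too. Mthfd2 differed there by -0.11 ± 0.26.

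Under light, no difference between injection states was called for any member. Vehicle plus light against light damage called 0 members by edgeR and 0.122% of all genes, and nanoceria plus light against light damage called 0 members and 0.0608% of all genes. Nanoceria plus light against vehicle plus light called 0 members and 0% of all genes. In these 3 comparisons no member had an unadjusted p under 0.05, and DESeq2 and limma-voom called none. Between nanoceria plus light and vehicle plus light, Mthfd2 differed by -0.14 ± 0.25, Shmt2 by -0.03 ± 0.11, Psat1 by -0.11 ± 0.17 and Phgdh by -0.12 ± 0.18. The widest estimate was that of Aldh1l2 (0.51 ± 0.30, edgeR adjusted p = 1).

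Whether the response to light differed between settings was tested directly. The interaction with vehicle called 0 members by edgeR and 0.0442% of all genes, that with nanoceria 0 members and 0.409%, and that of nanoceria relative to vehicle 0 members and 0%. Mthfd2 was the only member with an unadjusted p under 0.05 in the interactions with vehicle and nanoceria, where 1059 and 1787 of 18094 genes had one. Its response was larger by 1.27 ± 0.34 after vehicle (edgeR adjusted p = 0.292) and by 1.24 ± 0.35 after nanoceria (edgeR adjusted p = 0.127) than without injection, and these values were 0.81 and 0.78 without control 5. The first was called by limma-voom with sample quality weights (limma adjusted p = 0.013) and the second by the Wald test of DESeq2 (DESeq2 adjusted p = 0.0478). With the near-identical pairs summed, limma-voom did not call the first. In the interaction of nanoceria relative to vehicle no member had an unadjusted p under 0.05, edgeR, DESeq2 and limma-voom called none, and the Mthfd2 response differed by -0.03 ± 0.36.

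Neighbouring genes of the pathway were counted in the averaged light comparison, in which the median of all genes was 0.02 and 20.5% of all genes were higher and 16.6% lower. Of 4 genes of the glycine cleavage system, which breaks down glycine in mitochondria, 1 rose and none fell. That gene was Gldc, the decarboxylase (0.77 ± 0.08, edgeR adjusted p = 1.38e-08), while Gcsh (-0.08 ± 0.05) and Dld (-0.03 ± 0.04) did not pass. Of 22 genes of folate transport, the folate cycle and the methionine cycle, 5 rose and 4 fell, near those shares. Mat2a, which makes S-adenosylmethionine, rose by 0.93 ± 0.08, Fpgs, which traps folate in the cell, rose by 0.53 ± 0.06, and Tyms, thymidylate synthase, fell by 0.58 on the log2 scale.

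Of 18 genes of serine transport and use, 4 rose and 5 fell, beside the same 20.5% and 16.6% of all genes. The neutral amino acid carriers Slc1a5 (1.92 ± 0.16, edgeR adjusted p = 1.85e-10) and Slc38a2 (0.78 ± 0.07) rose, and Sfxn2, of the sideroflexin family of mitochondrial carriers, fell by 0.78 on the log2 scale. Of 9 genes of purine synthesis, which takes up formyl units, 5 rose and 1 fell. Adsl (0.29 ± 0.04) and Gart (0.24 ± 0.03) rose slightly, while Impdh1, the IMP dehydrogenase form that photoreceptors use, fell by 1.19 on the log2 scale (edgeR adjusted p = 5.97e-11), beside the rod genes, of which 10 of 11 fell.

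Of 27 genes of a list of ATF4 and its targets outside serine and folate metabolism, 24 rose and 1 fell, with a median of 0.59. The stress cytokine Gdf15 rose by 3.16 ± 0.16, asparagine synthetase Asns by 1.93 ± 0.07 and Sesn2, a stress-induced inhibitor of growth signalling, by 1.19 ± 0.07 (edgeR adjusted p from 2.27e-17 to 1.91e-13). Atf4 mRNA itself did not pass (0.01 ± 0.05, edgeR adjusted p = 0.925), and the gene that fell was Ddit4 (-0.56 ± 0.06). Mthfd2, Shmt2 and Mthfd1l moved in the direction of most of this list, and Psat1, Phgdh and Aldh1l2 in the opposite one. All of these members are described as ATF4 targets in cultured cells, and the part of ATF4 in their values was not tested. By setting, 16, 19 and 19 of the 27 rose without injection, after vehicle and after nanoceria, where 11.9%, 9.67% and 8.15% of all genes were higher.

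The genes whose log2 level was most like that of Mthfd2 over 31 libraries were Herpud1, of the endoplasmic reticulum stress response (r = 0.92; 0.89 within 14 unlit and 0.68 within 17 lit libraries), and Sesn2 (0.92; 0.81 and 0.59). The tRNA synthetases Cars (0.92; 0.77 and 0.76) and Tars (0.92; 0.87 and 0.62) followed, and then Cebpz (0.90; 0.88 and 0.01). Sesn2 was 32.2 to 44.7 CPM in control and 61.7 to 79.4 CPM in light damage, 27.2 to 34.6 CPM in vehicle and 61.8 to 97.9 CPM in vehicle plus light, and 24.7 to 31.7 CPM in nanoceria and 52 to 84.5 CPM in nanoceria plus light. Its lit and unlit libraries did not overlap, while those of Mthfd2 did through control 5.

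Of the remaining marker lists, beside 20.5% of all genes higher and 16.6% lower, light on average changed 3 of 4 astrocyte genes (2 rose, 1 fell), 4 of 9 genes of microglia and macrophages (2 rose, 2 fell), 3 of 7 genes of the retinal pigment epithelium (1 rose, 2 fell) and 2 of 6 of ciliary body and iris (1 rose, 1 fell). None of 11 lens genes and none of 2 blood genes passed in this comparison. In light after vehicle 3 of the 11 lens genes were lower (median -2.74), where 7.17% of all genes were. Their summed level was 1096 to 14748 CPM in vehicle and 982 to 1706 CPM in vehicle plus light. The summed lens level ran from 161 to 14748 CPM in unlit and from 92.2 to 5034 CPM in lit libraries. It was highest in vehicle 1, also the highest vehicle library for Phgdh, Shmt2, Mthfd1l, Mthfd2, Aldh1l1 and Aldh1l2. Vehicle 3 had the next highest sum (6105 CPM). It had the lowest Psat1, Mthfd2 and Aldh1l1 of its group, but the highest Psph, Shmt1 and Mthfd1. The share of all genes highest in vehicle 1 is not given here, so this is not read as a result. The part of these cell types in the values of the members was not tested.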

How the data were processed

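Retinal polyA RNA was sequenced as paired 150 bp reads. The authors deposited whole-number counts per gene, not normalized as far as the values show. Trimmomatic 0.39, STAR 2.7.9a, featureCounts of Subread 2.0.1, DESeq2 1.30.1, R 4.0 and the rn6 build are named in the submitters' processing notes. Strand setting, annotation release and treatment of multi-mapping reads were not given in the sources used here, so genes that overlap on the other strand could share reads. Columns were matched to samples by name. The labels call the replicates biological, and each was taken as an animal, with the doubt on near-identical pairs given above.

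From the counts, 18094 genes passed filterByExpr (minimum count 10, minimum total 15) and were fitted together over 31 libraries in R 4.3.3 with edgeR 4.0.16 (quasi-likelihood test, robust, TMM, 1 coefficient per group). Adjustment was by Benjamini-Hochberg over these genes, and calls are those with an adjusted p under 0.05. Changes are log2 fold changes with their SE, where positive means higher with light or with the agent named first. There were 9 pairwise comparisons, 3 interactions and the average of the 3 light comparisons. Log2 CPM had a prior count of 2. The step was tested on simulated data with 200 changed genes, and the share of them found again is not given here.

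The members, lists and tests were chosen with earlier results of these data known. The text names all members, the 3 genes of each pathway list with the smallest p in the averaged light comparison, and the 5 genes most like Phgdh and Mthfd2 (mean log2 CPM of at least 1). Other genes, and the lists of surface epithelium and fibroblasts, were chosen after their values were seen. Of 161 list genes, 8 had no match. Alternatives were DESeq2 1.42.0 (size factors, Wald test), library size alone, no filter, the compared groups alone, limma-voom of limma 3.58.1, summed near-identical pairs, a term for Y-linked transcripts, a block for the replicate number, and leave-one-out fits.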

Additional observations from a re-analysis of the deposited data

Results flagged for a closer look

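Within each of the 6 groups, each member was examined for a library whose gap to the nearest other library was large against the range of the group. Of 60 sets of values 6 stood apart, and chance gives about 1 in 20 for independent values with a normal spread. CPM need not be spread so, all 6 were highest values, and the vehicle and light damage groups each hold a near-identical pair. The rate for these data is therefore not known. Control 5 had 37.8 CPM of Mthfd2, with the next control at 16.9 CPM, and without this library Mthfd2 passed in light without injection and no longer passed in nanoceria without light, calls that other alternatives changed too. Light damage 3 had the highest value of its group for both Psat1 (44 CPM, next 35.1) and Psph (25 CPM, next 15.1). Vehicle plus light 4 had 60.8 CPM of Mthfd1 (next 49.1) and also the highest epithelial sum of its group, 7431 CPM. Vehicle 1 had 11.8 CPM of Mthfd2 (next 8.83) and the highest lens sum of all libraries, while vehicle 3, with the next highest lens sum, had the lowest Mthfd2 of that group (7.93 CPM). Nanoceria 3 had 2.55 CPM of Aldh1l2 (next 1.83) and the highest fibroblast sum of its group, 4925 CPM. The part of these other cell types in the values was not tested.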

How the results depend on the processing

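No called member changed direction under any alternative, and in the averaged light comparison Phgdh, Psat1, Shmt2, Mthfd1l and Mthfd2 passed in all 47 alternatives. The number of members called in light without injection was 3, and 5 by limma-voom with quality weights and by limma-voom with near-identical pairs summed (an alternative chosen after seeing the data), and 4 by DESeq2 and with only the compared libraries. Over all genes the fit reported called 2147 higher and 1927 lower there. The 2 limma-voom fits called 2837 and 2797, and 2402 and 2229. DESeq2 called 2357 and 2141, and only the compared libraries gave 1957 and 1710. After vehicle it was 3, 5 by limma-voom with quality weights, 4 with only the compared libraries, and 2 with library size alone or with the pairs summed by edgeR or limma-voom. Of all genes, limma-voom with quality weights called 3003 higher and 2216 lower after vehicle, and only the compared libraries gave 1398 and 1237. With the pairs summed, edgeR called 1390 and 1013 and limma-voom 1720 and 1430. After nanoceria it was 2, and 4 by the Wald test of DESeq2 and by both limma-voom fits. DESeq2 called 1361 genes higher and 1572 lower there. The limma-voom fits called 2026 and 1599 with quality weights, and 1979 and 1571 with the pairs summed. In vehicle without light it was 0, and 1 by DESeq2 and 2 by limma-voom with quality weights. Of all 18094 genes, edgeR called 2 higher and 2 lower there, DESeq2 35 and 17, and limma-voom with quality weights 1021 and 1190. In nanoceria without light it was 1, and 0 with only the compared libraries. The interaction with vehicle gained 1 by limma-voom with quality weights and that with nanoceria 1 by DESeq2. Those fits called 66 genes higher and 52 lower, and 41 higher and 234 lower, in the 2 interactions. By edgeR these were 4 and 4, and 14 and 60. With libraries left out, counts were 2 to 4 in light without injection, 2 to 3 after vehicle, 2 to 4 after nanoceria, 5 to 6 in the average and 0 to 1 in nanoceria without light, and 0 elsewhere. The cause of these shifts was not tested. Deviations of same-numbered libraries correlated at -0.353 to 0.381 over 60 pairs, with a median of 0.078 against -0.00581 for 338 pairs of different number, and 12 of 31 libraries correlated best with their own number. Not every pair was above 0.1 and the labels name no shared litter or batch, so the numbers were not taken as pairing, though the data hint at some shared deviation. The sample numbers at the end of the library names also run in order of the replicate number, and the labels do not say what this marks. With the number as a block, 4 members were called in light without injection, 2 after vehicle, 2 after nanoceria, 6 in the average and 0 in nanoceria without light, and 0 in the rest. The block lost Psat1 after vehicle and Mthfd2 in nanoceria without light, and gained Mthfd2 in light without injection. Library size alone moved the median of all genes after vehicle to 0.12 from 0.02 and gave 2371 higher and 1100 lower genes without injection (2147 and 1927 in the fit reported), 2434 and 688 after vehicle (1749 and 1297) and 1480 and 671 after nanoceria (1474 and 1046). The size factors of DESeq2 gave 1115 and 1306 after nanoceria. Depth limits Aldh1l1 and Aldh1l2, with as few as 36 and 39 counts in light damage 1.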

Other observations

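Among neighbouring genes chosen after their values were seen, 3 were higher with light averaged over the 3 injection states. The mitochondrial folate carrier Slc25a32 rose by 0.32 ± 0.05, Mthfd2l, a paralogue of Mthfd2, by 0.20 ± 0.06 and Mtfmt, which formylates the mitochondrial initiator tRNA, by 0.12 ± 0.04 (edgeR adjusted p from 1.5e-05 to 0.0264). These were picked because they rose and stand for no theme, since Amt, Gcsh and Dld of mitochondrial glycine cleavage did not pass (0.02 ± 0.06, -0.08 ± 0.05 and -0.03 ± 0.04) and Aldh1l2 fell. Serine use also held genes that fell. Srr, which makes the neurotransmitter D-serine, changed by -0.19 ± 0.05 and Slc7a10, a carrier of D-serine and other small amino acids, by -0.70 ± 0.14, while the cytosolic seryl-tRNA synthetase Sars rose by 0.38 ± 0.04 and its mitochondrial form Sars2 did not pass (-0.01 ± 0.04, edgeR adjusted p = 0.859).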
